A study of Mus musculus with 6 samples.

Results

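The regions described here are 4 stretches of the mouse genome that hold copies of the major satellite and that were read far more deeply than their surroundings. They were chosen by position in the mm9 build: chr2:98502001-98508000, chr9:3000001-3039000, chr9:35112001-35114000 and chr12:3109001-3111000, called below the chromosome 2 array, the proximal and distal chromosome 9 arrays and the chromosome 12 array. Together they held 1604 of the 10025464 cytosines of the deposited table, in 873 CpGs and 49 windows of 1000 bp. The proximal chromosome 9 array supplied 1404 of these cytosines, the chromosome 2 array 144, the chromosome 12 array 30 and the distal chromosome 9 array 26. Depth was what singled the arrays out, so the depths given here describe the choice and are not a result.

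The study measured DNA methylation by whole genome bisulfite sequencing in male germ cells of 6 mouse pups of mixed strain background at postnatal day 2.5. Germ cells were sorted by the fluorescence of an Oct4-GFP reporter, and the DNA of each pup was kept apart. The groups were Tex15WT (the 2 wild-type pups, 8 and 9), Tex15HT (the 2 heterozygous pups, 7 and 18) and Tex15KO (the 2 pups homozygous for the Tex15 mutation, 3 and 16), all from matings of heterozygous parents. The Tex15 genotype is known from the labels only, since the table holds no readout of the gene. With 2 pups a group, an exact two-sided permutation test between groups cannot give a p below 0.33.

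The major satellite is a short unit repeated in tandem over long blocks next to the centromeres of mouse chromosomes, where it makes up most of the pericentromeric heterochromatin. Most copies lie in gaps of the reference assembly, and the few copies that were assembled collect the reads of many others, so a level measured in them is an average over copies whose true place is not known. In the male germ line DNA methylation is erased in the embryo and laid down again before and around birth. TEX15 is needed for the silencing and methylation of retrotransposons in fetal male germ cells, together with the nuclear PIWI protein MIWI2.

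The arrays took up a large share of each library. Cytosine calls in the 4 arrays made up 25.7% and 24.5% of all calls in Tex15WT pups 8 and 9, 27.6% and 26.7% in Tex15HT pups 7 and 18, and 18.1% and 23.8% in Tex15KO pups 3 and 16. Tex15KO pup 3 held the smallest share. The deepest window, at the right end of the chromosome 2 array (chr2:98507001-98508000), alone carried a median of 50.1% of the array calls over the pups. The edges were sharp: the outermost windows of the arrays held between 4916 and 6349975 calls in a sample, and the adjoining windows outside held at most 66. The shallowest window of the arrays, chr9:3008001-3009000, held 1016 calls in its shallowest sample, and 52 windows elsewhere in the table were at least as deep as that in every sample. On the reference's plus strand lay 68.4% to 70.2% of the array calls.

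Depth was high enough for counting error to matter little in the levels of whole arrays. In the shallowest array, on chromosome 12, the 95% Wilson interval of a sample's level reached at most 0.559 points to either side. These intervals cover counting error only, and calls from copies of the same DNA molecule are not independent.

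Methylation of the arrays was intermediate in every pup. The level, methylated calls over all calls in percent, was 38.1% and 39.7% for wild-type pups 8 and 9, 35.7% and 37.1% for heterozygous pups 7 and 18, and 38.5% and 38.6% for knockout pups 3 and 16. Both Tex15KO pups lay between the 2 Tex15WT pups, and both Tex15HT pups lay below all the others. Elsewhere in the table the level was 72.3% to 75.3%, and the order of the pups was different, with Tex15WT pup 9 lowest and Tex15HT pup 7 highest.

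The 4 arrays did not have the same level. In pooled calls the chromosome 2 array was the highest, at 38.8% and 40.3% for Tex15WT, 36.4% and 37.8% for Tex15HT and 39.1% and 39.3% for Tex15KO. The proximal chromosome 9 array followed at 35.7% and 37.4%, 33.5% and 34.8%, and 36.5% and 36.5%. The distal chromosome 9 array was the lowest, at 33.5% and 35.3%, 30.6% and 32.5%, and 32.8% and 33.4%. The chromosome 12 array stood between them, at 36.7% and 38.7%, 34.8% and 35.0%, and 37.0% and 37.1%. In all 4 arrays Tex15HT pup 7 was the lowest sample, Tex15HT pup 18 the next and Tex15WT pup 9 the highest. The plot of levels by array shows this shared order.

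**Figure D1:**
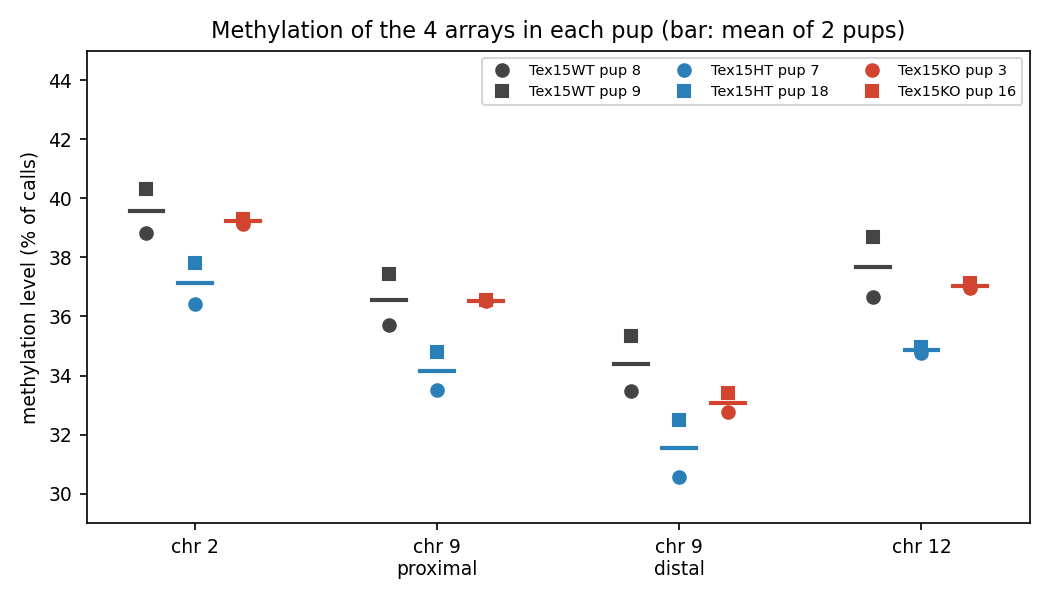
Methylation level (percent of calls) of each array on the vertical axis, with arrays and groups along the horizontal axis; points are single pups and bars the mean of the 2 pups of a group. In every array the 2 Tex15HT pups are the lowest points, and the vertical axis does not start at 0.

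Because every array was measured in the same 6 pups, differences between arrays were tested within pups by an exact permutation test with sign flips, for which 0.03125 is the smallest p that 6 pups allow. All 6 pairs of arrays reached it after Benjamini-Hochberg adjustment over the pairs (adjusted p = 0.03125 each). The chromosome 2 array exceeded the proximal chromosome 9 array by 2.88 points ± 0.177 (SD, n = 6 pups), and the distal chromosome 9 array by 5.63 ± 0.506. The smallest difference was that of the chromosome 12 array over the proximal chromosome 9 array, 0.774 points ± 0.463, in 6 of 6 pups. The same 6 pairs passed among cytosines read at least 100 times in every pup. With every cytosine weighted alike, 4 of the 6 pairs passed (exact permutation test, adjusted p = 0.046875 each), and the order changed. The chromosome 2 array was then −12.8 points ± 6.01 (SD, n = 6) from the distal chromosome 9 array, with pups from −16.8 to −0.784. In Tex15KO pup 3 the distal level was 38.5%, the same as over its 20 cytosines read at least 100 times in every pup. In the other pups it was 50.5% to 53.6%, so this difference leans on the few poorly read cytosines. The order also changed with equal weights among the cytosines read at least 100 times in every pup. There the chromosome 2 array was the lowest of the 4 in 6 of 6 pups, by a mean of −1.002 points to the proximal chromosome 9 array, −3.99 points to the distal one and −4.10 points to the chromosome 12 array (exact permutation test, adjusted p = 0.0375 each). The order of whole arrays therefore depended on how their cytosines were weighted.

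Set against all other cytosines, each array was lower in 6 of 6 pups. The difference was −35.6 points ± 2.23 (SD, n = 6) for the chromosome 2 array, −38.5 ± 2.26 for the proximal and −41.2 ± 2.52 for the distal chromosome 9 array, and −37.7 ± 2.35 for the chromosome 12 array (exact sign-flip permutation test, adjusted p = 0.03125 each). The direction depended on what the arrays were set against. Only 1155 cytosines outside the arrays were read at least 100 times in every pup, and their level was 19.0% to 22.6%, so against them the arrays as a whole were 16.8 points higher. Among those 1155 were 121 mitochondrial cytosines, which are hardly methylated. Without them the level was 19.9% to 24.4%, and the chromosome 2 array was still 16.4 points higher (6 of 6 pups).

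Single cytosines had intermediate levels almost throughout. Of the 1604 array cytosines, 832 had at least 100 calls in each pup. The median of their mean levels was 38.8%, with quartiles of 30.7% and 45.4%. Between 20% and 60% lay 671 of them (80.6%), 16 were under 10%, and 0 were above 70%. Tex15KO pup 3 stood apart from the other pups in this pattern. Over these 832 cytosines Pearson's r ran from 0.932 to 0.945 in the 5 pairs of pups that include it and from 0.978 to 0.986 in the other 10, a description across cytosines that share copies and reads. That pup was also the shallowest in the arrays, with a median of 115 calls a cytosine against 204 to 317 in the others.

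The extremes in each array show how far single cytosines stood apart. In the chromosome 2 array the highest was the plus-strand cytosine at chr2:98502951, at 63.7% to 67.2% over the pups. The lowest lay close to it, at chr2:98502984, with 0.443% to 0.954% on 9539 or more calls in each pup. The cytosine of the opposite strand of that CpG was as low, at 0.243% to 1.03%. In the proximal chromosome 9 array the range ran from 1.06% to 1.52% at chr9:3022235 to 55.2% to 80.7% at chr9:3029548, the latter on as few as 135 calls. The distal chromosome 9 array ran from a mean of 14.5% (chr9:35113019) to 46.6% (chr9:35112885), and the chromosome 12 array from 26.6% (chr12:3110026) to 51.3% (chr12:3110099). The near-zero cytosines lay at no position of the repeat unit described next. Mitochondrial cytosines, which show what a scarcely methylated template gives here, stood at 0.656% to 0.826% in 5 pups and at 1.82% in Tex15KO pup 3.

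Levels also changed from window to window. In the proximal chromosome 9 array the window means of the 6 pups ran from 23.5% at chr9:3005001-3006000 to 42.1% at chr9:3036001-3037000, and in the chromosome 2 array from 27.5% at chr2:98505001-98506000 to 43.3% at chr2:98504001-98505000. The 2 windows of the distal chromosome 9 array were at 42.3% and 31.0%, and those of the chromosome 12 array at 43.5% and 29.3%.

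The spacing of CpGs showed the repeat. Among all pairs of CpGs up to 600 bp apart within an array, 234 bp was the most frequent distance (318 pairs over the 4 arrays), and 468 bp, a pair of repeats, the next (198 pairs). A repeat of 234 bp is the known length of the mouse major satellite unit. In the chromosome 2 array the distance of 234 bp was shared by 9 pairs, as were 88 bp and 251 bp. The plot of CpG distances shows the peaks in the proximal chromosome 9 array and the weaker ones in the chromosome 2 array.

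**Figure D2:**
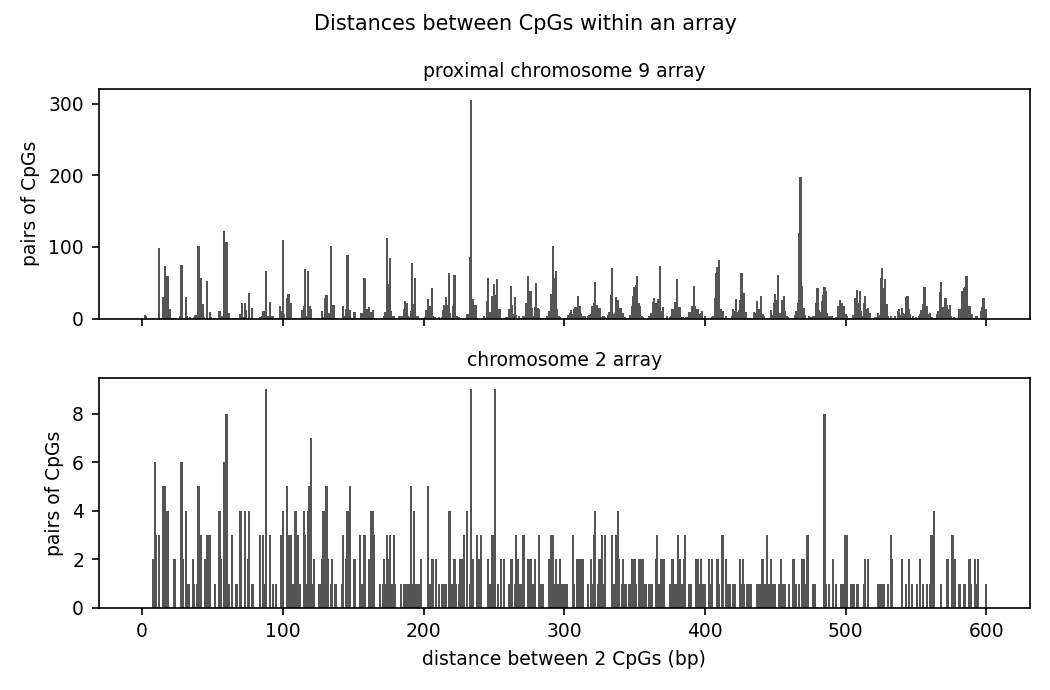
Number of pairs of CpGs (vertical axis) at each distance in bp (horizontal axis) within the proximal chromosome 9 array, above, and the chromosome 2 array, below. The tallest line of the upper panel stands at 234 bp with 305 pairs and the next at 468 bp with 198 pairs.

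The unit used for numbering was read from the chromosome 2 array. It had 8 CpGs, separated in turn by 15, 16, 42, 18, 28, 12, 48 and 55 bp, and position 1 is the CpG after the longest distance. Most copies lack 1 or more of these CpGs. A CpG was given a position when at least 4 of its neighbours within 250 bp, and at least 50% of them, fell on the unit to within 1 bp. This placed 714 of the 873 CpGs (81.8%), which carried 91.5% of the array calls. In the proximal chromosome 9 array 662 CpGs ran in the opposite direction to the chromosome 2 unit and 4 in the same, while the chromosome 2 array held both directions (24 and 8 CpGs).

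Position in the unit accounted for most of the spread between cytosines. Over the 749 assigned cytosines with 100 calls in every pup, 91.7% of the variance of the mean level lay between the 8 positions, against 0.268% between the 4 arrays over all 832 such cytosines. The mean levels of the 6 pups at positions 1 to 8 were 33.1%, 35.1%, 15.8%, 58.5%, 40.9%, 41.0%, 47.8% and 45.7%. Position 3 was thus the low point of the unit and position 4, at a distance of only 42 bp, its high point. Within each pup position 4 exceeded position 3 by between 39.8 and 44.1 points, a gap larger than any difference between pups at 1 position. The profile of levels along the unit was alike in all 6 pups. A call read as T counts as unmethylated whatever the sequence of the copy, and most copies lack 1 or more of the CpGs. These levels can therefore mix sequence differences between copies with methylation, and the part of each was not tested.

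**Figure D3:**
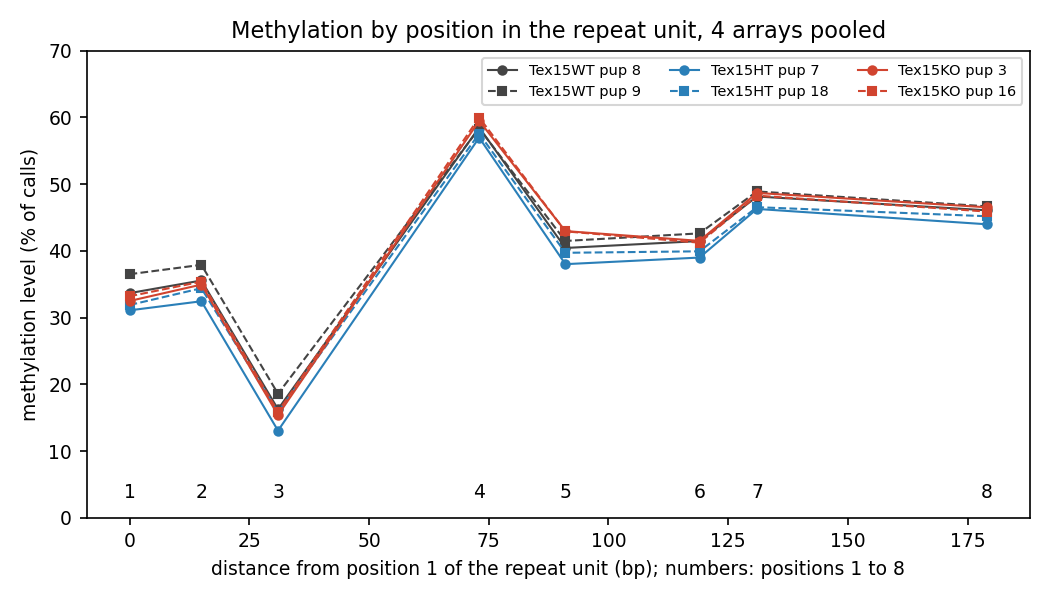
Methylation level (percent of calls, 4 arrays pooled) at the 8 CpG positions, placed on the horizontal axis by their distance in bp from position 1; each line is 1 pup. All 6 lines fall to a low at position 3, between 13.1% and 18.6%, and rise to a high at position 4, between 57.0% and 59.99%.

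A similar profile appeared in classes made without the fit to the unit. The classes are not separate observations: they hold the same CpGs. By distance those with neighbours at 16 and 42, 18 and 42, and 12 and 28 bp are positions 3, 4 and 6 of the unit. Classes of CpGs defined only by the distances to their 2 neighbours, for classes found at 5 or more places, accounted for 93.2% of the variance (620 cytosines, 37 classes). CpGs with neighbours at 16 and 42 bp, found at 36 places, had a mean of 13.3% over their well-read cytosines, and those with neighbours at 18 and 42 bp, at 42 places, 53.8%. CpGs with neighbours at 12 and 28 bp, the most frequent class with 64 places, stood at 39.9%. In pooled calls the class with neighbours at 18 and 42 bp was the highest, at 58.8%. The lowest was a class outside the unit, with neighbours at 43 and 60 bp at 7 places, at 4.02%. Classes made from the start coordinate modulo 234 alone, which lose register wherever a copy is longer or shorter, accounted for 48.6%.

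The low point at position 3 recurred in each array with CpGs placed there, and the high point at position 4 in 3 of the 4 arrays. At position 3 the mean of the 6 pups was 16.5% in the chromosome 2 array, 13.3% in the proximal and 14.6% in the distal chromosome 9 array, and the chromosome 12 array had no CpG placed there. At position 4 it was 59.3% in the chromosome 2 array, 53.5% in the proximal and 43.4% in the distal chromosome 9 array, and 53.2% in the chromosome 12 array. In the distal chromosome 9 array, where position 4 is a single CpG, position 7 was higher than position 4 in 6 of 6 pups (means of 45.5% and 43.4%). Copies running in the opposite direction within the chromosome 2 array had 14.3% at position 3 and 58.8% at position 4, against 16.7% and 59.3% in the others. In the proximal chromosome 9 array the 4 CpGs placed in the less frequent direction did not have the profile: their levels were 3.53% at position 1, 5.81% at position 4 and 2.14% at position 5, on as few as 13 calls at position 1, 348 at position 4 and 155 at position 5 in a pup. In pooled calls the chromosome 2 array was above the proximal chromosome 9 array at all 8 positions in 6 of 6 pups, by a mean of 1.87 points (position 6) to 5.77 points (position 4). With equal weights for cytosines read at least 100 times in every pup it was also above at all 8 positions in 6 of 6 pups, by 1.45 points (position 6) to 6.67 points (position 4). At matched positions the order of these 2 arrays was thus the same under both weightings, unlike their order as whole arrays.

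**Figure D4:**
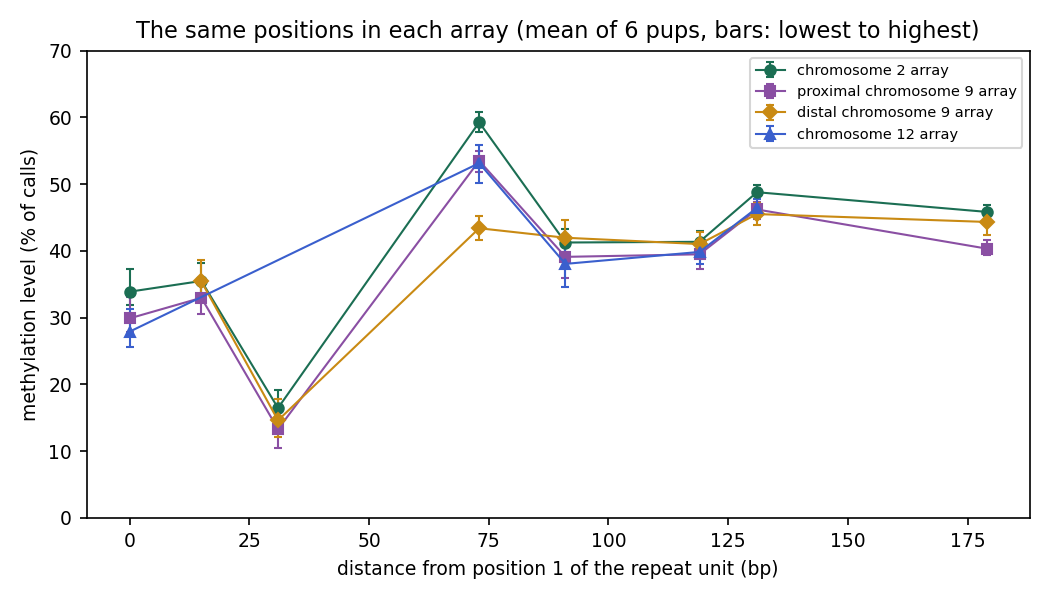
Mean methylation level of the 6 pups (percent of calls) by distance in bp from position 1, 1 line per array; bars run from the lowest to the highest pup, and lines pass over positions with no CpG in that array. The arrays lie furthest apart at position 4, where the distal chromosome 9 array is at 43.4% and the chromosome 2 array at 59.3%.

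The strands of a CpG mostly carried the same level. Pooled over an array, the plus strand was higher by 2.17 points ± 0.180 (SD, n = 6) in the chromosome 2 array and by 4.28 ± 0.930 in the chromosome 12 array, while the difference was −4.07 ± 0.327 and −2.87 ± 0.559 in the proximal and distal chromosome 9 arrays (exact sign-flip permutation test, adjusted p = 0.03125 each over 4 arrays). These pooled values weight different CpGs on the 2 strands, since 62.7% to 86.2% of an array's calls in a pup lay on the plus strand. Within the 311 CpGs read at least 100 times on both strands in every pup, the median difference was 0.145 points and the median absolute difference 1.73 points. The adjustment over 4 arrays left this test unable to call a single array, since 0.03125 is its smallest unadjusted p. The distal chromosome 9 array stood at that value (1.75 points, 6 of 6 pups, exact permutation p = 0.03125, adjusted p = 0.125), and the others had adjusted p from 0.5 to 0.5625. In 107 of the 311 CpGs the difference had the same sign in all 6 pups.

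In 3 of those 311 CpGs the strands differed by more than 10 points. At chr9:3004257 the plus strand was at 1.54% to 5.15% on 758 to 2190 calls in a pup. The minus strand there was at 22.6% to 37.1% on only 115 to 217 calls. At chr2:98502786 the values were 8.13% to 10.9% and 19.3% to 28.1%, on at least 3917 and 2834 calls. The source of these strand differences was not tested. In both CpGs the ranges of the 2 strands did not overlap. The largest differences in the other arrays were smaller, with means of 9.90 points at chr12:3109883 and 4.55 points at chr9:35113119, and there the pups overlapped. In Tex15KO pup 3 the minus strand at chr9:35113120 stood at 29.6%, below the 41.7% to 47.1% of the other pups.

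The comparison of Tex15KO with Tex15WT asks whether the arrays lost methylation without TEX15, as the series' design text says of retrotransposons. Over the 4 arrays the means were 38.5% ± 0.118 in Tex15KO and 38.9% ± 1.10 in Tex15WT (SD, n = 2 each), which is −0.33 points, less than the spread between the Tex15WT pups (exact permutation p = 1.0). The sign was not stable. With every cytosine weighted alike it was 0.388 points, and without Tex15WT pup 9 it was 0.445 points. In the distal chromosome 9 array both Tex15KO pups lay below both Tex15WT pups in pooled calls, with means −1.32 points apart (exact permutation p = 0.33). With equal weights for its cytosines read at least 100 times the 2 groups overlapped. In each of the other arrays both Tex15KO pups lay between the Tex15WT pups. Over the 4 arrays Tex15KO was 2.12 points above Tex15HT, and Tex15HT minus Tex15WT was −2.45 points. In both of these the groups did not overlap, with p = 0.33 in the exact permutation test, the smallest the design allows.

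Windows gave the same order of groups. Of the 49 windows, 46 were lower in both Tex15HT pups than in both Tex15WT pups, where 11.8% of all 330095 tested windows were, and 0 were higher, against 18% of all windows. In 41 of 49 both Tex15KO pups were above both Tex15HT pups (17.8% of all windows) and in 0 below (9.26%). Between Tex15KO and Tex15WT 6 of 49 windows were lower in Tex15KO without overlap (8.37% of all windows) and 0 higher (21.6%). In 0 of the 49 windows were both Tex15KO pups outside the range of all 4 other pups in either direction (4.32% of all windows lower and 8.24% higher). The 49 windows share reads and copies, so they are not 49 separate observations of a group.

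The edgeR quasi-likelihood test on methylated and unmethylated counts, fitted to all 330095 windows with at least 3 CpGs and 10 calls in every pup, called few of the 49 windows at an adjusted p under 0.05. Between Tex15KO and Tex15WT it called 1 window lower (0.00939% of all windows) and 0 higher (0.000303%), and without adjustment 3 windows passed 0.05, all lower. That window, chr2:98506001-98507000, was at 37.0% and 39.2% for Tex15WT, 34.3% and 35.8% for Tex15HT and 36.8% and 37.0% for Tex15KO, so that the group means lay −1.26 points apart (Tex15KO minus Tex15WT, edgeR adjusted p = 0.01). The Tex15KO pups lay below the lower Tex15WT pup by a margin much smaller than the distance between the Tex15WT pups, and above both Tex15HT pups.

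Between Tex15KO and Tex15HT 3 windows were called higher (0.000909% of all windows) and 0 lower (0.00485%). Between Tex15HT and Tex15WT 4 were called lower (0.00121%) and 0 higher (0%). These 3 higher and 4 lower windows were the only ones called in those directions among all tested windows. The window chr2:98502001-98503000 was at 33.7% and 35.8% for Tex15WT, 31.4% and 32.6% for Tex15HT and 33.5% and 34.1% for Tex15KO, so that Tex15HT was lowest without overlap and the other groups overlapped. The deepest window, chr2:98507001-98508000, was at 41.3% and 42.3%, 38.97% and 40.3%, and 42.0% and 41.9%, in the same order of groups. These windows and chr2:98506001-98507000 were the 3 called in Tex15KO against Tex15HT (differences of 1.82, 2.28 and 1.86 points) and, with chr9:35113001-35114000, the 4 called in Tex15HT against Tex15WT (−2.78, −2.17, −3.13 and −2.89 points). The 2 comparisons share the Tex15HT pups.

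The calls changed with depth and with the test. The 4 windows called in any comparison had the 4 smallest spreads of the 49 in the fit, in which edgeR takes the spread from a trend with depth. The quasi-dispersion was 3.395e-05 to 0.001024 in them against a median of 1.649 over all tested windows. With limma 0 of 49 windows were called in any of the comparisons, where its calls among all windows were 0.0985% lower and 0.000303% higher for Tex15KO against Tex15WT, and 0.0612% lower and 0.00151% higher for Tex15KO against Tex15HT. Of the 49, 0 passed an unadjusted p under 0.05. In each comparison 0 were called by edgeR after calls were thinned at random to at most 1000 a window and pup. Without either Tex15KO pup the window called between Tex15KO and Tex15WT was no longer called, and without Tex15WT pup 9 the single call was a higher window, chr2:98507001-98508000.

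At some positions of the unit the groups stood in another order than over the whole arrays. At position 5 the level was 40.4% and 41.5% for Tex15WT, 38.0% and 39.7% for Tex15HT and 43.0% and 42.9% for Tex15KO, and both Tex15KO pups were above all 4 others. At position 4 it was 58.5% and 58.3%, 57.0% and 57.6%, and 59.5% and 59.99%, again with both Tex15KO pups highest. At positions 1, 2 and 3 Tex15KO lay below the mean of Tex15WT, with differences of −2.24, −1.57 and −1.79 points. There Tex15WT pup 9 stood apart as the highest sample, and without it they were −0.823, −0.392 and −0.635 points. At positions 6, 7 and 8 the difference was −0.685, −0.0453 and −0.166 points, smaller than the distance between the Tex15WT pups.

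These position values are a description. Positions were looked at after the array levels were known, the 8 positions share reads, and no test was made on them.

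**Figure D5:**
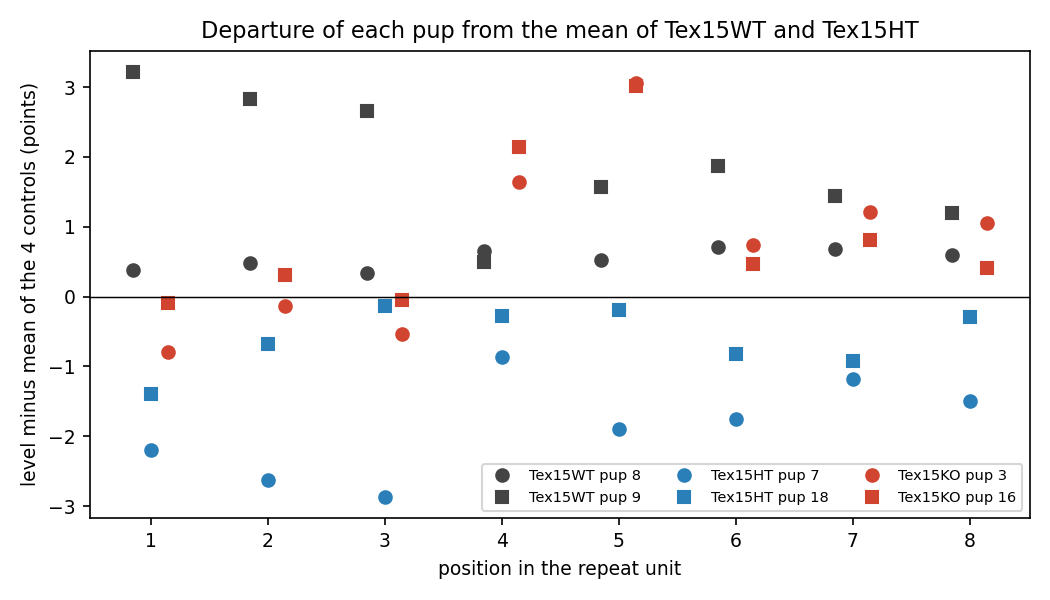
Level of each pup minus the mean of the 4 Tex15WT and Tex15HT pups, in points (vertical axis), at positions 1 to 8 of the repeat unit (horizontal axis), with 1 point per pup. The 2 Tex15KO pups are the highest points at positions 4 and 5, at 1.65 and 2.15 points and at 3.05 and 3.01 points, and Tex15WT pup 9 is highest at positions 1 to 3.

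Contrasts between positions were also taken within each pup. Position 5 exceeded position 1 by 6.77 and 4.98 points for Tex15WT, by 6.92 and 7.83 points for Tex15HT and by 10.5 and 9.73 points for Tex15KO. Position 6 was above position 5 in all 4 control pups, by 1.04 and 1.14 points in Tex15WT and by 0.99 and 0.221 points in Tex15HT, and below it in both Tex15KO pups, by a difference of −1.47 and −1.70 points. The pair of positions 5 and 6, which are 28 bp apart, was chosen after these values were seen. In pooled calls the Tex15KO pups did not overlap the controls in either contrast. With equal weights for cytosines read at least 100 times, position 6 minus position 5 was 1.12 to 1.87 points in the controls, 0.160 points in Tex15KO pup 3 and −0.781 points in pup 16, so the groups still did not overlap but the sign turned in pup 16 only.

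The excess at position 5 recurred across the arrays. Tex15KO was 1.89 points above Tex15WT in the chromosome 2 array, 2.15 and 2.48 points in the proximal and distal chromosome 9 arrays and 3.24 points in the chromosome 12 array, with both Tex15KO pups above the 4 others in each. The value of the chromosome 12 array rests on 661 calls in its shallowest pup. With its cytosines weighted alike the groups overlapped there, and its strands went opposite ways, with 6.56 points on the strand of the unit and −4.99 points on the other, where the Tex15KO pups were not both above the 4 others. Reads of the same satellite copies may lie in any of the arrays, so the arrays are not separate samples of the satellite. Over the 4 arrays pooled, both strands showed the excess at position 5, with differences of 2.03 points on the strand of the unit and 1.86 points on the other. At position 4 the Tex15KO pups were highest in the chromosome 2, proximal chromosome 9 and chromosome 12 arrays (1.28, 1.42 and 2.68 points over Tex15WT), and not in the distal chromosome 9 array (−0.602 points). In the chromosome 12 array position 4 is 2 cytosines with 543 calls in the shallowest pup. There the Tex15KO pups were not both above the 4 others on the strand opposite to the unit.

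Leaving out either Tex15WT pup or either Tex15KO pup left the difference at position 5 between 1.46 and 2.51 points. Tex15KO pup 3 had the smallest array share and the highest mitochondrial level, 1.82%. In Tex15KO pup 16 the mitochondrial level was 0.753%, and 0.656% to 0.826% in the controls. The part of library differences of this kind in the values at position 5 was not tested.

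Single cytosines are the parts of the pooled position values, so the counts below describe those values and add no separate support. The cytosines share copies and reads and are not replicates of a group. Of the 832 array cytosines with 100 calls in every pup, 141 were above all 4 controls in both Tex15KO pups (9.11% of all 1987 such cytosines in the table) and 13 below (22.7%). The shares over all include the array cytosines. Of the 1155 such cytosines outside the arrays, 40 were above and 438 below. By position, these 141 comprised 66 of the 123 cytosines at position 5 (53.7%), 35 of 96 at position 4 (36.5%), 19 of 143 at position 7, 10 of 101 at position 6, 5 of 86 at position 2 and 1 of 25 at position 8. At positions 1 and 3 it was 0 of 46 and 0 of 129, and among the cytosines with no position 5 of 83. The median difference between Tex15KO and Tex15WT was 2.18 points at position 5 and −2.36 points at position 1.

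Against Tex15WT alone, 154 of the 832 cytosines were higher in Tex15KO without overlap (11% of all 1987) and 156 lower (37%). Of the 156, 41 were at position 3, 25 at position 7, 23 at position 1, 23 at position 2, 19 at position 6, 7 at position 5, 5 at position 4, 4 at position 8 and 9 at no position. Of the 154, 67 were at position 5, 38 at position 4, 21 at position 7, 11 at position 6, 5 at position 2, 2 at position 8, 1 at position 1, 0 at position 3 and 9 at no position. Higher cytosines outnumbered lower ones at positions 4 and 5, lower ones prevailed at positions 1, 2 and 3, and position 7 held both in similar numbers. For Tex15HT the direction was the same along the unit: 500 of the 832 were below both Tex15WT pups (34.3% of all 1987) and 18 above (5.49%), and the pooled level was below Tex15WT at every position, from −1.14 points at position 4 to −3.60 points at position 1. Against Tex15HT, 461 were higher in Tex15KO (26.8%) and 18 lower (26%). Of the 1155 such cytosines outside the arrays, 65 were higher and 580 lower in Tex15KO than in Tex15WT. There 182 were lower and 91 higher in Tex15HT than in Tex15WT, and 72 were higher and 498 lower in Tex15KO than in Tex15HT.

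A small share of the chromosome 2 array had another spacing. It held 9 pairs of CpGs 9 or 10 bp apart that recurred at 118 to 122 bp. These 18 CpGs carried 6.50% of the calls of that array. As background, a repeat of about 120 bp is the length of the mouse minor satellite, the centromeric repeat whose binding site for CENP-B holds CpGs close together. The label of the region as major satellite therefore covers most, and not all, of this array by spacing, and no sequence was read to settle what these copies are.

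The level of these pairs was 30.9% and 34.5% for Tex15WT, 29.4% and 30.2% for Tex15HT and 32.0% and 32.1% for Tex15KO, so both Tex15KO pups were again between the Tex15WT pups and above both Tex15HT pups. It was lower in each pup than that of the CpGs placed on the 234 bp unit in the same array, which was 37.4% to 41.2%. The other 24 CpGs of that array, with no position on the unit, were lower still, at 25.8% to 28.6%. A level below that of the unit was thus not particular to the pairs. Within a pair the CpGs differed in steps that recurred: in 3 pairs the left CpG was at a mean of 54.3% to 62.9% and the right at 29.98% to 37.4%, and these were the 3 pairs 10 bp apart. In the pairs 9 bp apart with more than 1000 calls, both CpGs stood between 22.6% and 32.7%.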

How the data were processed

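The deposited table gave, for each cytosine of a CpG and each of the 6 samples, the counts of all calls, of methylated calls and of unmethylated calls, made by the authors. The submitters' processing notes name mm9, BSMAP, Bismark and methylKit, without versions or roles. Not given in the sources used here are the treatment of duplicates and of reads with several matches, and the conversion of the spiked-in lambda DNA. Both bear on collapsed repeats, where many reads share a place.

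Levels were methylated calls over all calls, pooled over cytosines with the strands kept apart. Windows were tested with edgeR 4.0.16 (modelMatrixMeth, glmQLFit, Benjamini-Hochberg over all windows, adjusted p under 0.05) in 1 fit of all 6 samples, with limma 3.58.1 on log2 of (methylated + 1) over (unmethylated + 1) as an alternative, in R 4.3.3. On simulated counts for Tex15KO against Tex15WT in 330095 windows, edgeR recovered 68 of 100 windows changed by 60 points and 1 of 100 changed by 30 points. The changed windows were drawn from windows more methylated than any array window and were lowered in Tex15KO. These rates therefore do not give the power of the test in the arrays, where the called differences were far smaller. Single values per sample were compared by exact two-sided permutation tests. Whether the pups of a group came from separate litters is not stated, and the permutation tests count each pup as a separate observation. The edgeR p-values rest on a spread taken from the trend with depth over all windows, not on the spread between pups in a window.

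Named were the windows called in any comparison and the highest and lowest windows and cytosines of each array, and CpGs by position. The regions, the groupings and these rules were chosen with earlier results of these data known. No mm9 genome was used here, so no sequence is printed.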

Additional observations from a re-analysis of the deposited data

How the results depend on the processing

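No paired analysis of the groups was possible, because each pup has 1 genotype and the litters of the pups are not stated. Array levels kept their direction in Tex15KO minus Tex15HT (1.43 to 2.91 points) and Tex15HT minus Tex15WT (−3.23 to −1.67 points) under all 9 alternatives. Tex15KO minus Tex15WT changed sign to 0.388 points with every cytosine weighted alike, and without single pups ran from −1.11 to 0.445 points. The arrays minus the rest of the table turned to 16.8 points with 100 calls in every pup. Without single pups this difference stayed between −37.0 and −35.6 points, with an exact permutation p of 0.0625, the smallest that 5 pups allow. For the same reason the strand difference of all arrays (0.943 points, 0.921 to 0.983 without single pups) and the pairs of arrays (0 of 6) no longer passed. Of the pairs, 5 passed with cytosines of 100 calls weighted alike, an alternative added after the data were seen, with the order of the arrays changed. The strand difference reversed to −1.0 points with every cytosine weighted alike and to −0.122 points as the unweighted mean of the 4 arrays. The range between positions was 44.2 points over the distance classes that belong to the unit, 40.5 over the same classes in cytosines with 100 calls, 42.1 by coordinate modulo 234 and 42.6 over the 8 unit positions, the last added after the data were seen, as were all alternatives at single positions.

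Windows called by edgeR numbered 1, 3 and 4 of 49 in Tex15KO against Tex15WT, Tex15KO against Tex15HT and Tex15HT against Tex15WT. With limma, with calls thinned to 1000 and without the top 0.1% of coverage (21 windows left to test) there were 0 in each. Tex15KO against Tex15WT had 3 with a minimum of 30 calls and 2 with 10 CpGs. Tex15HT against Tex15WT had 0 when only those 2 groups were fitted. Without single pups the counts ran from 0 to 2, 0 to 3 and 0 to 5, and the last was 0 without either Tex15KO pup, where 563278 (without pup 3) or 331330 windows (without pup 16) were tested in place of 330095. The second count was 0 without Tex15KO pup 3, and 1 without Tex15KO pup 16 or Tex15HT pup 7. The cause of these changes was not tested.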
